A study of Mus musculus with 4 samples.

Results

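The genes described here are the constant regions of the immunoglobulin chains *Ighm*, *Ighg*, *Ighg1*, *Ighg2c* and *Igkc*, together with the J chain gene *Igj*, 6 of the 22188 genes tested. They were chosen by name with the difference between the ages already known from the same counts, so their age values are given as a description, without a test. RNA was sequenced from bone marrow of wild-type (WT) male C57Bl/6 mice, either mature (3-month-old) or elderly (24-month-old), with 2 libraries per age. The study's methods speak of RNA pooled from 3 or 4 animals in a group, whereas the labels title each library as a single mouse. Whether a library stands for 1 animal or for a pool is thus not settled, and errors are given as the spread between libraries. The labels give the source only as bone marrow. The study reports sequencing cells freshly sorted from it by LEPR, after exclusion of Ter119, CD31 and CD45. The libraries held between 10472117 and 15650518 counts of reads per Ensembl transcript, and CPM are these counts relative to the library total after TMM scaling.

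An antibody is built of heavy and light chains, each with a variable end that binds antigen and a constant end that sets its class. A B cell first makes the mu heavy chain (IgM) and may later replace it by a gamma, epsilon or alpha constant region through class switch recombination, which deletes the DNA in between. Plasma cells secrete antibody, and the J chain joins IgM and IgA units into polymers. In bone marrow, long-lived plasma cells lie next to the stromal cells that express LEPR and CXCL12.

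The heavy chain genes lie in 1 cluster on the reverse strand of chromosome 12 (NCBI Build 37, mm9). *Ighm* (ENSMUSG00000076617), the mu constant region, spans chr12:114659078-114660941 with 4 exons. *Ighg1* (ENSMUSG00000076614), the constant region of IgG1, spans chr12:114567187-114568734, and *Ighg2c* (ENSMUSG00000076612), that of IgG2c, chr12:114523536-114527141. *Ighg* (ENSMUSG00000076613), at chr12:114544600-114546144, lies between these 2 genes, the place that RefSeq gives to *Ighg2b* in its own annotation of GRCm38. A further gamma gene, annotated as *AI324046*, lies between *Ighm* and *Ighg1*, which is the place of *Ighg3*. *Igkc* (ENSMUSG00000076609), the kappa light chain constant region, is a single exon of 323 bases at chr6:70676429-70676751 on the forward strand. *Igj* (ENSMUSG00000067149) spans chr5:88949537-88956916 on the reverse strand. The annotated *Ighg2c* transcript has 6 exons, whereas those of *Ighm*, *Ighg* and *Ighg1* have 4 and end at a stop codon in the last of them.

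Exon 2 of the gamma genes encodes the hinge, the flexible stretch whose cysteines bond the heavy chains to each other. The hinge exons are printed below in the coding direction, read from the reference genome of the same build, to show how the isotypes differ in a stretch that sets their bonding. The counts below cover whole genes and not this exon alone. Capitals mark the in-frame cysteine codons, of which *Ighg* and *Ighg1* have 4, *Ighg2c* has 3 and *AI324046* has 1. They lie at chr12:114545472-114545537, chr12:114568055-114568093, chr12:114526474-114526536 and chr12:114598740-114598787.
Ighg: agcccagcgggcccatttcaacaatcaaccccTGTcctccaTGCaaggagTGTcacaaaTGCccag
Ighg1: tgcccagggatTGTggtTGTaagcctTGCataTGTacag
Ighg2c: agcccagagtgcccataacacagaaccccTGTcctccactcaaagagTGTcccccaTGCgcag
AI324046: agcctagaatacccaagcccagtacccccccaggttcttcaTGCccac

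The last 84 bases of *Ighm* exon 4 (chr12:114659078-114659161) and of *Igkc* (chr6:70676668-70676751) carry the cysteines by which these chains are joined to their partners. Capitals mark the cysteine codon next to the end of the coding part. In *Ighm* this is the tail of the secreted form, whose cysteine takes part in polymers with the J chain. In *Igkc* it is the codon before the stop, the cysteine that bonds the light to the heavy chain.
Ighm: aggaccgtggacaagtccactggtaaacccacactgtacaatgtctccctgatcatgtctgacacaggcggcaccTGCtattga
Igkc: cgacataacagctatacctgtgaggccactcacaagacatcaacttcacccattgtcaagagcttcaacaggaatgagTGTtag

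The gamma genes resemble each other, which can move reads between them. Exon 3 of *Ighg* and *Ighg2c* was identical at 94.2% of 330 bases, and exon 1 of *Ighg* and *Ighg1* at 88.3% of 291 bases. Of all windows of 40 bases, the read length that the methods give, 9.02% of those in *Ighg* and 7.87% of those in *Ighg2c* occurred in another constant gene examined. None of the windows of *Ighg1*, *Ighm*, *Igkc* or *Igj* did. No exonic base of *Ighm*, the gamma genes or *Igkc* is shared with another annotated transcript, whereas 999 of the 1393 bases of the main *Igj* transcript are its own.

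*Ighm* had 873 and 396 counts in mature libraries against 8932 and 12401 in elderly libraries, which is 76.5 and 33.9 CPM against 788 and 817 CPM. Both elderly libraries lay far above both mature ones, and the mean was 14.5-fold higher (55.2 ± 30.1 against 802.7 ± 20.5 CPM, SD, n = 2). The mature libraries differed from each other by 2.26-fold, the elderly ones by 0.964-fold (replicate 1 over replicate 2, exact 95% interval 0.939 to 0.991). Intervals of this kind, and limits taken from low counts, cover counting error only.

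*Igkc*, the constant region of the kappa light chain, had 208 and 177 counts in mature libraries against 4716 and 6327 in elderly libraries. This is 18.2 and 15.2 CPM against 416 and 417 CPM, and the groups did not overlap. The mean was 25.0-fold higher in elderly cells (16.7 ± 2.17 against 416.5 ± 0.556 CPM, SD, n = 2).

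*Igj* encodes the small protein that links IgM and IgA polymers. It had 53 and 28 counts in mature libraries against 594 and 914 in elderly libraries, or 4.64 and 2.40 CPM against 52.4 and 60.2 CPM. Both elderly libraries again lay above both mature libraries, with a mean 16-fold higher (3.52 ± 1.59 against 56.3 ± 5.53 CPM, SD, n = 2).

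*Ighg* had 2 and 0 counts in mature libraries against 657 and 964 in elderly libraries, the latter at 58.0 and 63.5 CPM. Only a handful of reads stood for this gamma gene in mature cells, and both elderly libraries held it at a like level. Over the pooled counts of each age, the elderly level was 706-fold the mature one, with an exact 95% interval from 195 to 5830 that the 2 mature counts leave wide. The elderly libraries differed by 0.913-fold (0.825 to 1.01).

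*Ighg1* had 0 counts in both mature libraries, 703 in elderly replicate 1 and 4 in elderly replicate 2, or 62.0 and 0.264 CPM in the elderly libraries. The signal thus stood in 1 of the 4 libraries. Against the limit that 3 counts per library set for mature cells, elderly replicate 1 was at least 239-fold higher, whereas elderly replicate 2 was at 1.01 times that limit. Within the elderly age, replicate 1 held 235 times the level of replicate 2 (exact 95% interval 91.5 to 866).

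*Ighg2c* had 0 and 188 counts in mature libraries against 835 and 4 in elderly libraries, or 0 and 16.1 CPM against 73.7 and 0.264 CPM. High and low libraries occurred at both ages, so that the ages overlapped. The elderly mean was 4.59-fold the mature mean (8.05 ± 11.4 against 36.97 ± 51.9 CPM, SD, n = 2), with an SD above the mean at each age. Without elderly replicate 1 the fitted log2 fold change turned from 2.19 to −4.91. Elderly replicate 1 held 280 times the level of elderly replicate 2 (109 to 1030).

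In 5 of the 6 members, all except *Ighg2c*, both elderly libraries lay above both mature ones. The same held for 21.6% of all genes tested, and since the age contrast chose the members nothing is read from their count. For *Ighg1* the order rests on 4 counts in elderly replicate 2 against 0 in each mature library. Fitted log2 fold changes had a median of 4.32 over the members and −0.02 over all genes. Together the members made up 0.00952% and 0.00673% of all counts in mature libraries against 0.157% and 0.132% in the elderly libraries. Their summed level was 83.6 ± 22.6 CPM in mature and 1404 ± 65.1 CPM in elderly cells (SD, n = 2), a ratio of 16.8. Because the libraries are bulk RNA, a larger number of cells with these transcripts and more such RNA per cell cannot be told apart.

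**Figure D1:**
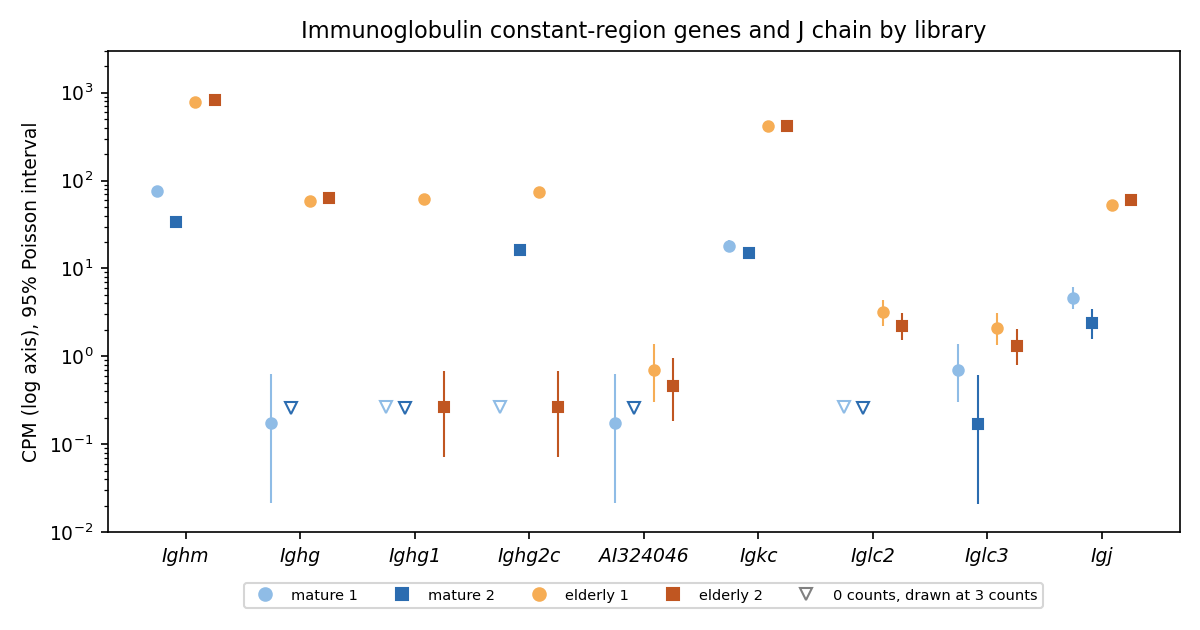
Level of each constant-region gene and of *Igj* in CPM on a log axis, with 1 point per library and its exact 95% Poisson interval, and with open triangles for libraries at 0 counts, drawn at the level of 3 counts. *Ighm*, *Igkc*, *Ighg* and *Igj* are high in both elderly libraries, whereas *Ighg1* is high in elderly replicate 1 and *Ighg2c* in elderly replicate 1 and mature replicate 2.

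Levels of different genes were compared per length, as CPM per kilobase that belongs to no other transcript. In elderly replicate 1 the 3 gamma members stood close together, at 57.4 for *Ighg*, 63.7 for *Ighg1* and 60.8 for *Ighg2c*, with *Ighm* at 577 and *Igkc* at 1288. In elderly replicate 2 *Ighg* stood at 62.9, *Ighm* at 598 and *Igkc* at 1291, but *Ighg1* at 0.271 and *Ighg2c* at 0.218. The libraries of elderly mice therefore had nearly the same mu, kappa and *Ighg* levels and differed in the other gamma genes. *Igj*, at 52.5 and 60.3 on this scale, lay near the highest gamma genes in both. In mature cells *Ighm* stood at 56.0 and 24.8 and *Igkc* at 56.4 and 46.9, and their order was not separated in replicate 1. *Ighg2c* of mature replicate 2, at 13.3, was the only gamma gene of that age above 1 on this scale.

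The gamma share of heavy chain counts was taken with the mu and the 4 gamma genes as the total. Counts over constant regions do not tell transcripts of a finished antibody gene from those made of a constant region alone before switching. The share was 0.456% (4 of 877 counts, exact 95% binomial interval 0.124 to 1.16) in mature replicate 1 and 32.2% (188 of 584, 28.4 to 36.1) in mature replicate 2. In elderly replicate 1 it was 19.8% (2203 of 11135, 19.0 to 20.5) and in elderly replicate 2 it was 7.32% (979 of 13380, 6.88 to 7.77). The mature libraries held both the lowest and the highest share, so the ages did not separate by this share. Per base, which allows for the length of each gene, the shares were 0.622%, 34.9%, 24.1% and 9.65% in the same order. The means of 17.8 ± 24.2% in mature and 16.9 ± 10.2% in elderly cells (SD, n = 2) differed by less than the spread between libraries of 1 age. No test was made of this share.

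The makeup of the gamma transcripts differed among the 3 libraries with more than 4 gamma counts. In mature replicate 2 all 188 gamma counts were of *Ighg2c* (100%, exact 95% interval from 98.1). In elderly replicate 1 they were divided among *Ighg2c* (37.9%), *Ighg1* (31.9%) and *Ighg* (29.8%). In elderly replicate 2 *Ighg* made up 98.5% (97.5 to 99.1), with *Ighg1* and *Ighg2c* at 0.409% each. The 4 gamma counts of mature replicate 1 allow no such division. These intervals treat reads as independent and do not cover the spread between libraries.

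**Figure D2:**
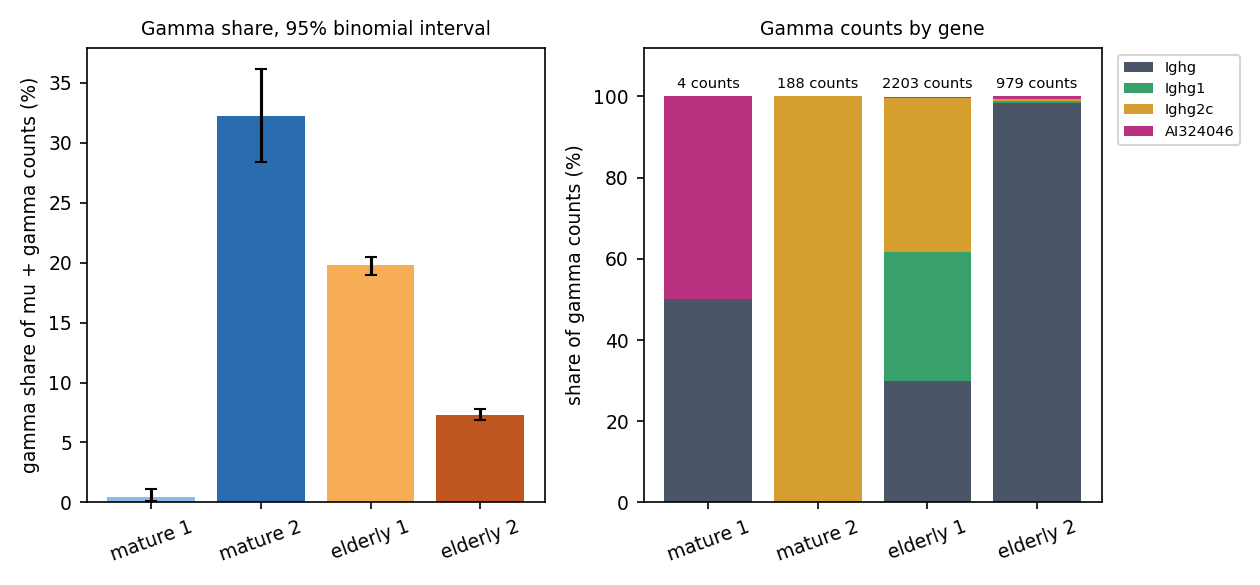
Left, gamma share of the mu and gamma heavy chain counts in percent, with exact 95% binomial intervals, in each of the 4 libraries. Right, share of each gamma gene in the gamma counts of the library in percent, with the number of gamma counts above each bar. The share is highest in mature replicate 2, and *Ighg* fills nearly all of elderly replicate 2, whereas elderly replicate 1 is divided among 3 genes.

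The proportions of the chains were then compared within libraries. The number of *Igj* counts per *Ighm* count was 0.0607 (exact 95% interval 0.0451 to 0.0801) and 0.0707 (0.0464 to 0.104) in the mature libraries and 0.0665 (0.0611 to 0.0723) and 0.0737 (0.0688 to 0.0788) in the elderly libraries. The intervals of both mature libraries overlapped those of both elderly libraries, at *Ighm* levels that differed more than 10-fold between the ages. The number of *Igkc* counts per *Ighm* count was 0.238 (0.204 to 0.277) in mature replicate 1 and 0.447 (0.372 to 0.535) in mature replicate 2, against 0.528 (0.510 to 0.547) and 0.510 (0.495 to 0.526) in the elderly libraries. Mature replicate 1 therefore had the lowest kappa-to-mu ratio of the 4 libraries. Against the mu and gamma genes together, per base, kappa stood at 1.0 and 1.23 in mature and 1.7 and 1.95 in elderly libraries. Both mature libraries were lower on that measure. These ratios share the *Ighm* count and are given as a description.

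**Figure D3:**
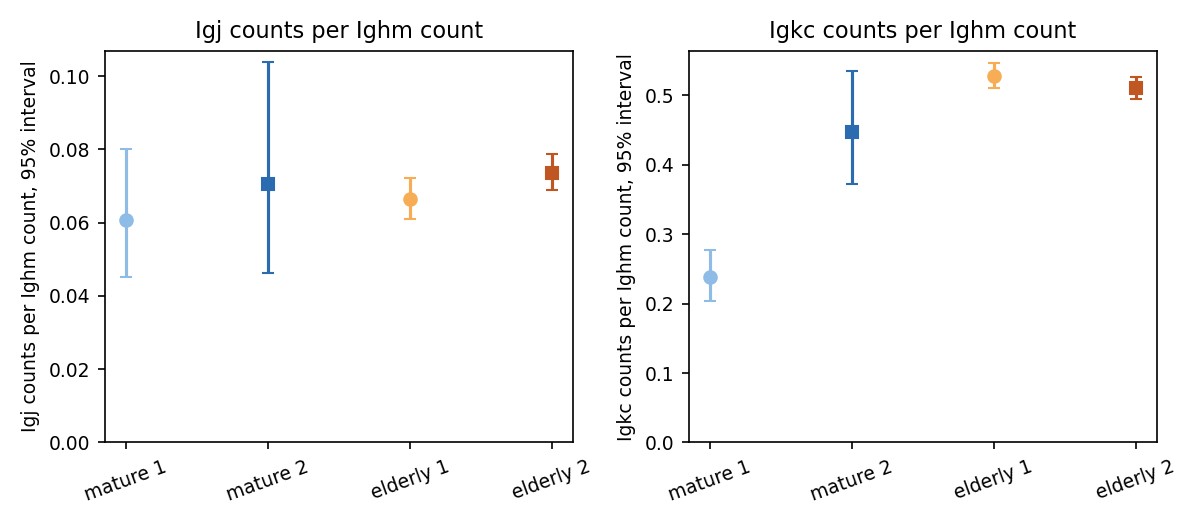
Counts of *Igj* (left) and *Igkc* (right) per count of *Ighm* in each library, with exact 95% intervals that cover counting error. The *Igj* ratio lies between 0.0607 and 0.0737 in the 4 libraries, and the *Igkc* ratio is lowest, at 0.238, in mature replicate 1.

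The variable segments of the same loci were also higher in both elderly libraries. Annotated heavy chain variable genes on chromosome 12 summed to 136 and 87 counts in mature libraries against 1553 and 2195 in elderly libraries, which is between 0.139 and 0.164 per heavy chain constant count. Kappa variable genes summed to 88 and 62 counts against 2484 and 2747, or between 0.350 and 0.527 per *Igkc* count. The heavy chain joining segments, which lie next to *Ighm*, had 12 and 7 counts against 109 and 109.

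A list of 10 other constant-region genes held 5 with an entry in the annotation, of which *Ighg2b* is the member *Ighg*, *Ighe* (annotated as *Gm900*) had 0 counts in every library and 3 were tested. *Igha*, *Ighd*, *Ighg2a*, *Iglc1* and *Iglc4* were not matched and are not analysed here, so the gamma share leaves out any IgA or IgD transcripts. *Iglc2*, a lambda light chain constant region, had 0 and 0 counts in mature libraries against 36 and 34 in elderly libraries, at least 10.4-fold higher (edgeR's quasi-likelihood test, adjusted p = 0.0016). *Iglc3* had 8 and 2 against 24 and 20 counts (log2 fold change 1.95, standard error 0.80, edgeR adjusted p = 0.31) and *AI324046* had 2 and 0 against 8 and 7 (edgeR adjusted p = 0.60). Thus 1 of the 3 passed the test as higher and 0 as lower, where 2.5% of all genes passed as higher and 0.577% as lower. Without either elderly library edgeR called 0 genes in all, *Iglc2* and every list gene named below included, with 1481 (without replicate 1) and 1629 (without replicate 2) at an unadjusted p under 0.05. *Iglc2* and *Iglc3* share 13.3% and 13.9% of their windows of 40 bases with each other, so reads may be divided unevenly between them. Lambda made up 3.70% (1.61 to 7.17) and 1.12% (0.136 to 3.98) of the light chain constant counts in mature and 1.26% (0.960 to 1.61) and 0.846% (0.636 to 1.10) in elderly libraries, with *Iglc1* not included.

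Of 20 plasma cell genes tested, 2 were higher in elderly cells at an adjusted p under 0.05 in edgeR's test and 0 lower, against 2.5% higher and 0.577% lower of all genes. The other 18 did not pass, and the median log2 fold change of the list was 0.00, or 0.08 with genes at 0 in 1 age taken at the limit of 3 counts. Of the 20, 10 were fitted higher (10868 of 22188 among all genes) and the others lower. In 8 of them both elderly libraries lay above both mature ones, against 21.6% of all genes. *Prdm1*, the transcription factor that directs plasma cell differentiation, had 0 and 0 counts in mature libraries against 45 and 51 in elderly libraries, at least 14.1-fold higher (edgeR adjusted p = 0.00046). *Cd38*, an ectoenzyme of plasma cells and other blood cells, rose from 3.12 ± 0.173 to 11.4 ± 0.953 CPM (SD, n = 2), which is a log2 difference of 1.87 (SE 0.34, edgeR adjusted p = 0.0047). In the exact test at a set dispersion that the study used, *Cd38* did not pass the adjusted threshold (adjusted p = 0.27). The study's own calls used a fold change cutoff and p under 0.05 with no adjustment named. They can thus differ from the calls in that test given here and below.

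Other plasma cell genes were not called. *Sdc1*, which encodes the surface marker CD138, had 78.0 and 62.9 CPM in mature libraries against 41.5 and 55.4 CPM in elderly libraries (log2 fold change −0.54, edgeR adjusted p = 0.36). *Xbp1*, a transcription factor of the secretory pathway, had 59.3 and 51.1 against 44.3 and 41.9 CPM (edgeR adjusted p = 0.63). *Mzb1*, a chaperone of antibody assembly, had 53 and 28 against 123 and 85 counts (log2 fold change 1.22, edgeR adjusted p = 0.19). *Tnfrsf17*, the plasma cell receptor BCMA, had at most 2 counts in any library. *Pdia4*, a protein disulfide isomerase and the list's most abundant gene, had 596 and 727 against 415 and 660 CPM. *Pdia4*, *Sdc1* and *Xbp1* were thus abundant in mature libraries, where the members were low. Which cells gave these transcripts was not tested, so the median of the list does not describe plasma cells alone. *Irf4* was at 0 in all libraries but has 3 bases of its own among the 4715 of its longest transcript, so its count carries no information.

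Of 21 B-lineage genes tested, *Rag1* passed the test as higher and 0 as lower, a share of 4.76% higher against 2.5% of all genes. This recombinase gene of antigen receptor assembly rose from 23.9 ± 5.28 to 55.4 ± 14.6 CPM (SD, n = 2), which is a log2 difference of 1.22 (SE 0.26, edgeR adjusted p = 0.014), and it was not called without mature replicate 2 (edgeR adjusted p = 0.14) or in the study's exact test (adjusted p = 0.76). *Rag1* is also the most abundant gene of this list. *Rag2* had 3 and 5 counts in mature libraries against 12 and 4 in elderly libraries (edgeR adjusted p = 0.87). The median log2 fold change of the list was 1.24, or 1.21 with limits. In 12 of the 21 genes both elderly libraries lay above both mature ones, against 21.6% of all genes. *Cd79a*, part of the B cell receptor, had 10.4 and 9.34 against 19.7 and 13.8 CPM (edgeR adjusted p = 0.28). *Ms4a1*, which encodes CD20, had 0 and 0 against 9 and 11 counts (edgeR adjusted p = 0.14). *Fcer2a* went the other way, with 16 and 8 against 6 and 7 counts (edgeR adjusted p = 0.72). In all, 18 of the 21 genes were fitted higher, against 10868 of the 22188 genes tested. The summed level of the tested B-lineage genes was 65.9 and 52.8 CPM in mature and 140 and 96.0 CPM in elderly libraries. *Cd79b* and *Cd22*, both defining B cell genes, were at 0 in every library. They have 236 and 219 bases of their own, against 1431 and 4097 in their longest transcripts, so most of each could not be counted.

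**Figure D4:**
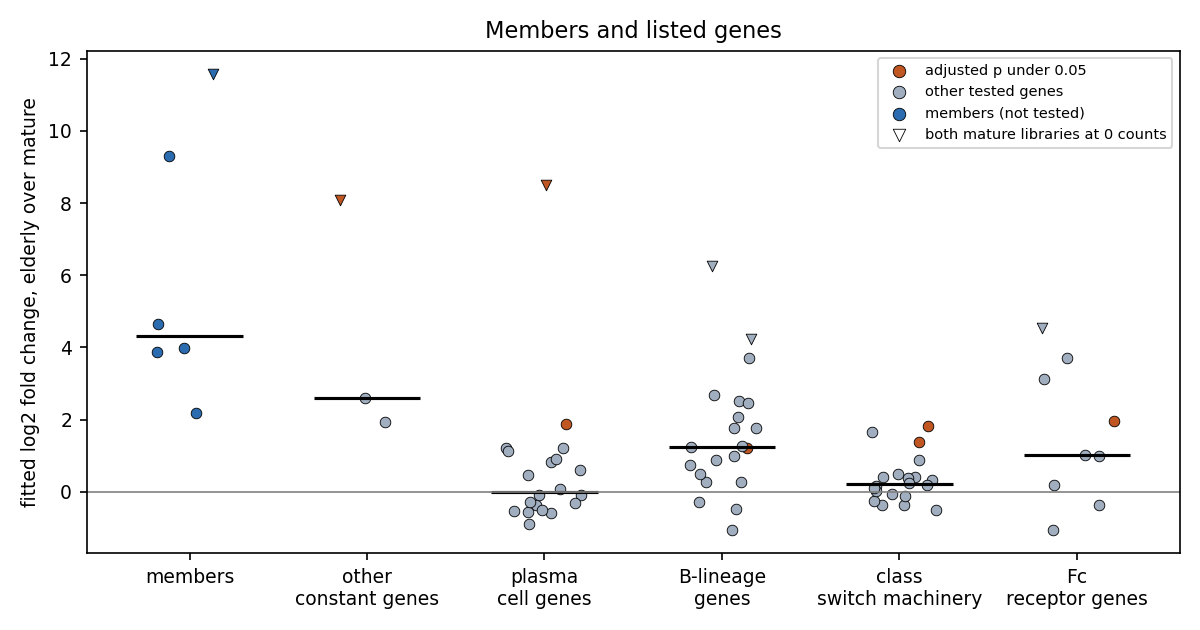
Fitted log2 fold change, elderly over mature, of each tested gene of the members and of 5 lists, with black lines at the medians. Triangles mark genes at 0 counts in both mature libraries, whose fitted values depend on the prior count. Called genes are few in each list, and the members, drawn without a test, have a median of 4.32.

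Of 20 genes of the class switch machinery tested, 2 rose and 0 fell, against 2.5% and 0.577% of all genes. *H2afx*, the histone variant that marks DNA breaks, rose from 41.0 ± 8.10 to 107.5 ± 25.1 CPM (SD, n = 2), which is a log2 difference of 1.39 (edgeR adjusted p = 0.0032). *Exo1*, an exonuclease of mismatch repair, rose from 4.43 ± 2.03 to 15.8 ± 5.96 CPM (log2 fold change 1.83, edgeR adjusted p = 0.011). Both genes act in DNA repair of dividing cells in general. In the study's exact test neither passed the adjusted threshold used here (adjusted p = 0.57 for *H2afx* and 0.28 for *Exo1*). *Prkdc*, the list's most abundant gene and a kinase of DNA end joining, had 306 and 316 against 261 and 258 CPM (edgeR adjusted p = 0.71).

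Of 9 Fc receptor genes tested, *Fcgr4*, a receptor for IgG on myeloid cells, was higher in elderly cells and 0 were lower, where 2.5% of all genes were higher. It rose from 1.82 ± 0.152 to 7.07 ± 0.488 CPM (SD, n = 2), which is a log2 difference of 1.95 (SE 0.40, edgeR adjusted p = 0.011), and did not pass the adjusted threshold in the study's exact test (adjusted p = 0.25). *Fcgrt*, the neonatal Fc receptor that protects IgG from degradation, was the most abundant, with 699 and 593 CPM in mature and 437 and 566 CPM in elderly libraries (edgeR adjusted p = 0.61).

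Markers of several other blood cells were higher in elderly cells as well, where 2.5% of all genes were called higher. The summed level of 9 tested neutrophil genes was 2056 and 1158 CPM in mature and 4309 and 4265 CPM in elderly libraries, with 6 of the 9 called higher. That of 9 erythroid genes was 450 and 194 against 1440 and 1332 CPM, with 7 called higher, and that of 7 T and NK cell genes 4.64 and 5.82 against 16.5 and 10.8 CPM, with 1 called. Macrophage and monocyte genes summed to 3659 and 3341 against 2104 and 3549 CPM, with 4 of 10 called higher. *Vcam1*, which stromal cells express too, made up 3552 and 3263 against 1918 and 3348 CPM of that sum, and the other 9 genes summed to 107 and 78.2 against 186 and 201 CPM, higher in both elderly libraries. They were regrouped in this way after their values were seen. Megakaryocyte genes summed to 23.1 and 243 against 105 and 187 CPM, with 0 of 6 called. Endothelial genes summed to 24.6 and 35.4 against 42.7 and 41.1 CPM, with 2 of 6 called higher and 0 lower. The part of these cells in the members' difference was not tested. Of 9 genes of LEPR+ stromal cells, 0 were called and 0 were fitted higher (10868 of 22188 among all genes). Their median log2 fold change was −0.55. Their sum was 28290 and 28500 CPM in mature and 16920 and 24680 CPM in elderly libraries. *Lepr* itself, which overlapped between the ages, stood at 6064 ± 616 and 4907 ± 1235 CPM (SD, n = 2). *Ptprc*, which encodes CD45, had 12 counts or fewer in every library, but 152 of the 5814 bases of its longest transcript could be counted.

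The genes outside the immunoglobulin loci with the most similar pattern were found by the root mean square difference of centred log2 CPM over the 4 libraries, among 9110 genes with a mean of at least 5 CPM. Nearest to *Ighm* were *Ces1d* (0.34), *Hist3h2ba* (0.47), *C1qb* (0.53), *Apol11b* (0.55) and *Snhg11* (0.57). *Ces1d* had 17 and 8 counts in mature libraries against 302 and 474 in elderly libraries. For *Ighg1* the nearest were *Cxcl13* (2.13), *Cyp2f2* (2.35), *Fndc1* (2.45), *Car1* (2.46) and *Cldn13* (2.49), so no gene came close to its pattern. *Cxcl13* had 77 and 68 counts against 1893 and 1003, a difference between the elderly libraries far smaller than that of *Ighg1*. The points are 4 libraries and the patterns share the difference between the ages, so this is a description.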

How the data were processed

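RNA of 4 libraries was analysed, 2 from mature and 2 from elderly mice, grouped by the titles in the labels. The authors removed adapters with CutAdapt, mapped reads with HISAT2 to mm9 and counted them with featureCounts, and the deposited values are raw counts per Ensembl transcript. Versions, strand setting and the handling of reads on several genes are not given in the sources used here. All 25621 transcripts without a base of their own had 0 counts, so counts come from bases annotated to 1 transcript alone.

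Transcript IDs were matched to GENCODE M1, except 388 that held at most 0.0888% of the counts. Transcripts whose 4 counts summed to more than 2 were added up per gene (22188 genes), scaled by TMM and compared by the 2-sided quasi-likelihood test of edgeR 4.0.16 (R 4.3.3), adjusted after Benjamini-Hochberg over the genes tested, with calls at an adjusted p under 0.05. The study's exact test at a dispersion of 0.2 and DESeq2 1.42.0 were among the alternatives. Their calls here also use the adjusted p, whereas the study gives p under 0.05 and names no adjustment. The test was also run on simulated counts, with an outcome not reported here. Adjusted p-values rest on variance shared across genes and measure the spread between libraries, which may be pools or animals. The members and lists were chosen with earlier results of these data known. Sequences are of the reference genome NCBIM37.

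Named were the members, other constant genes with a count, called genes of each list, at most 6 per list, and each list's most abundant gene. *Sdc1*, *Xbp1*, *Mzb1*, *Tnfrsf17*, *Irf4*, *Rag2*, *Cd79a*, *Cd79b*, *Cd22*, *Ms4a1*, *Lepr* and *Ptprc* were named for their roles after their values were seen. *Fcer2a* was named for its direction. Some genes of the lists are not reported here by name. The depth of 10472117 to 15650518 counts puts the level of 3 counts between 0.198 and 0.265 CPM. The replicate numbers were not taken as pairs, since the difference of replicate 1 minus 2 correlated by 0.0341 between the ages over 14546 genes and the labels give no shared batch.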

Additional observations from a re-analysis of the deposited data

How the results depend on the processing

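The summed level of the members, a log2 ratio of 4.07, ranged from 3.82 (without mature replicate 2) to 4.38 (without mature replicate 1) and moved within the spread under other scalings and means. The fitted log2 fold changes of *Ighm* (3.39 to 4.56), *Igkc* (4.51 to 4.78) and *Igj* (3.60 to 4.55) kept their direction in all 8 alternatives, as did those of *Ighg* (7.94 to 12.60) and *Ighg1* (4.79 to 12.50). The size of the last 2 depends on the prior count and on single libraries. The fold change of *Ighg1* was 4.79 without elderly replicate 1, where 4 counts in elderly replicate 2 stood against 0 in each mature library. That of *Ighg2c* was −4.91 without elderly replicate 1 and 11.86 without mature replicate 2. Single libraries set the gamma shares, which per base ran from 0.62 to 34.9% in mature and from 9.65 to 24.1% in elderly cells when 1 library was left out. The planned share that includes alpha, delta and epsilon was not run, since of these only epsilon was matched, at 0 counts.

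There were 555 genes higher and 128 lower in elderly cells, 683 in all. The exact test called 209 (180 higher), with 1 of the plasma cell genes and 0 of the class switch and Fc receptor genes, against 1626 genes at an unadjusted p under 0.05. The replicate block, in which the replicate number is a term, called 1216 genes (926 higher), and 5 plasma cell, 5 B-lineage and 3 Fc receptor genes. Without a filter 2 B-lineage and 2 Fc receptor genes were called, and the robust fit and the fit on transcripts called 2 Fc receptor genes each. Leaving out 1 library gave between 0 and 796 genes. Without either elderly replicate edgeR called 0 genes, with 1481 (without replicate 1) and 1629 (without replicate 2) at an unadjusted p under 0.05, and the remaining elderly library was assumed to vary like the mature pair. The lists then ranged from 0 to 1 for other constant genes, 0 to 6 for plasma cell genes, 0 to 3 for B-lineage genes, 0 to 2 for class switch genes and 0 to 3 for Fc receptor genes. The highest counts of plasma cell, B-lineage and Fc receptor genes were those without mature replicate 1, where the 6 plasma cell genes were 5 higher and 1 lower. Apart from the fits without an elderly library, *Prdm1* and *Iglc2* were called in all 10 alternatives, *Cd38*, *Exo1*, *H2afx* and *Fcgr4* in all but the exact test, and *Rag1* in 8. The cause was not tested.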
